A study of Mus musculus with 6 samples.

Results

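The mitochondrial ribosomal protein genes were followed in mouse acute myeloid leukemia cells after panobinostat, an inhibitor of histone deacetylases. Members were the protein-coding genes whose mouse symbol starts with Mrpl or Mrps and a digit, which gave 78 of the 27179 genes in the count table, 49 named for the large subunit and 29 for the small one. All 6 libraries came from GFP-positive, propidium iodide-gated viable cells of the leukemia A/E9a;NRASG12D, taken from the spleen of C57BL/6 mice, and the fusion and the mutant NRAS in that name were present in both groups. Vehicle for 3 days (libraries 2, 3 and 4) was compared with panobinostat for 3 days (libraries 1, 5 and 6). The labels name 1 leukemia and do not say whether libraries came from separate mice, so a p-value here reflects how far the libraries of a group differ, and that spread may be technical. The sources used here do not give the age of the mice.

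Mitochondria keep a ribosome of their own, the mitoribosome, which makes the few core subunits of the respiratory chain that mitochondrial DNA encodes. Its RNAs come from the mitochondrial genome, whereas its proteins are encoded in the nucleus, made in the cytosol and imported. The small subunit holds the messenger RNA and decodes it, and the large subunit joins the amino acids and contacts the inner membrane. Acute myeloid leukemia cells are known for a strong reliance on mitochondrial translation.

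Total counts ran from 25794869 to 32571961 per library, so that 1 count was worth 0.0315 to 0.0403 CPM (counts per 1e6 counts of a library, its total scaled here by a TMM factor). Runx1t1, part of the fusion, and Kit, a progenitor receptor, were detected in every library. Kit measured 216 ± 5.49 CPM with vehicle and 238 ± 79.0 CPM with panobinostat (SD, n = 3). It was at 163.5 CPM in library 1, below all vehicle libraries, and at 320.8 and 228.7 CPM in libraries 5 and 6, above them. Runx1t1 measured 358 ± 72.5 CPM with vehicle (SD, n = 3) and 368, 858 and 619 CPM in panobinostat libraries 1, 5 and 6, and Nras 964 ± 63.3 CPM and 992, 1914 and 1512 CPM. Ptprc, the general white cell marker CD45, was low at 2.75 ± 0.554 CPM with vehicle (SD, n = 3). Red cell markers moved with treatment: their summed level over 8 genes was 4823 to 5907 CPM with vehicle and 50200, 24740 and 21960 CPM in panobinostat libraries 1, 5 and 6. Library 1 also had the highest globin share of the counts, 6.72%, against 3.71% and 3.22% in libraries 5 and 6 and 0.614% to 0.847% with vehicle. Library 1 stood apart from its group. The column names hold further numbers of unstated meaning, and in the last of them library 1 differs from the other 5. Values of the named members without library 1 are therefore also given. In that comparison 14.3% of all tested genes were called lower at an adjusted p under 0.05, against 9.72% with all 6 libraries.

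The stretches just upstream of some members are printed because these genes sit on 17 chromosomes and their start regions differ in the motifs counted after them. The sequences are from RefSeq on GRCm38 and are read 5′ to 3′ along the gene, ending at the base before its start and stopping at the neighbouring gene where that is closer. In the first 3, capitals mark the core bound by ETS factors such as GABP, CCGGAAGT or its reverse complement. Of these, Mrps27 and Mrps26 were lower with panobinostat, and Mrps22 missed the threshold. Of the 12 members with this core in the promoter window defined below, only Mrps27 and Mrps26 were called, so the 3 printed do not stand for the rest.
Mrps27, chr13:99344679-99344766, + strand: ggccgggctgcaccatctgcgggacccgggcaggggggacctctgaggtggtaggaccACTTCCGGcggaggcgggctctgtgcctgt
Mrps26, chr2:130563637-130563756, + strand: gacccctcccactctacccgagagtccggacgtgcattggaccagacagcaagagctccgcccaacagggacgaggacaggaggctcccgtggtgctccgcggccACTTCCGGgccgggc
Mrps22, chr9:98601680-98601799, - strand: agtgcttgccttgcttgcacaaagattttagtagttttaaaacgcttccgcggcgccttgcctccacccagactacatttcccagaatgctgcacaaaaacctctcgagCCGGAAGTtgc
In the next pair, capitals mark the core bound by NRF1, a factor known for mitochondrial genes, GCGCATGCG or its reverse complement.
Mrpl17, chr7:105811088-105811207, - strand: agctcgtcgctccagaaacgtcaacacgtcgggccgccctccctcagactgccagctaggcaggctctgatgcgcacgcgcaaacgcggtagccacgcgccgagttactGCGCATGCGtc
Mrpl32, chr13:14613038-14613157, - strand: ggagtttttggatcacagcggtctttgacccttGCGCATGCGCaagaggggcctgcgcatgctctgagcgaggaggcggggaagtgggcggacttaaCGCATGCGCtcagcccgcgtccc
The next pair fell with panobinostat and holds neither core in the bases shown.
Mrpl12, chr11:120484517-120484636, + strand: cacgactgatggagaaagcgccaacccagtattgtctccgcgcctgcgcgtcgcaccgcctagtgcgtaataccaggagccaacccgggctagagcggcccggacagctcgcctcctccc
Mrpl50, chr4:49521084-49521175, - strand: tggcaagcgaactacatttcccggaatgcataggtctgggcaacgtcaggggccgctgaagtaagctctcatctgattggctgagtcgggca
The last one is the whole gap between a small and a large subunit gene that are transcribed away from each other in RefSeq.
Mrps11 and Mrpl46, chr7:78783090-78783130, + strand: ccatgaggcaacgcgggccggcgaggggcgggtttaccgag

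A promoter window, from 250 bases before to 50 after a RefSeq start, was found for 69 of the 78 members, and both strands were searched for exact matches. The NRF1 core was in 7 of the 69 (10.1%), against 4.22% of the tested genes with a window and 1.95% of all genes with one. The ETS core was in 12 (17.4%), against 9.66% and 4.31%. The core of YY1, AAGATGGC, was also in 12 (17.4%), against 5.41% and 3.19%. At least 1 of these 3 cores was in 29 windows (42.0%), against 18% and 8.94%. The E-box CACGTG, bound by Myc, and TATAAA were each in 5 windows (7.25%), where the tested genes had 11.7% and 8.71%. None of these 5 letter strings contains another. Of the members that fell, 7 had a window: 2 held the ETS core, 1 the YY1 core and 0 the NRF1 core. By subunit, the NRF1 core was in 6 of 43 large subunit windows and 1 of 26 small ones, and the ETS core in 8 and 4. The YY1 core was in 6 and 6, a higher share in the small subunit (23.1%) than in the large one (14.0%). These matches describe letters in a window and were not measured as bound sites.

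All but 1 member were abundant enough to be tested. Mrpl36, a small zinc-binding protein of the large subunit, had 4, 3 and 1 counts in vehicle libraries 2, 3 and 4 and 1, 7 and 2 counts in panobinostat libraries 1, 5 and 6. The other 77 averaged between 12.1 CPM (Mrps6) and 92.8 CPM (Mrpl18) over the vehicle libraries, with a median of 37.2 CPM. Per kilobase of exon, the vehicle level had a median of 18.6 CPM for large subunit genes and 11.7 CPM for small subunit genes. The highest per kilobase of exon was Mrpl52 at 73.6 CPM, ahead of Mrpl18 at 66.4 CPM, and the lowest was Mrps17 at 1.92 CPM. Per kilobase of coding sequence, the medians of the subunits were 57.1 CPM and 54.0 CPM. The gap between the subunits thus depended on whether untranslated exon sequence was counted in the length. Vehicle libraries were close to each other: the median SD of a member's log2 level was 0.08 with vehicle and 0.18 with panobinostat, against 0.12 and 0.19 over all tested genes.

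With panobinostat, 8 of the 77 tested members fell and 0 rose (edgeR quasi-likelihood F test, Benjamini-Hochberg adjusted p under 0.05 over the 12916 genes tested). Over all tested genes, 9.72% were called lower and 11.3% were called higher. The share of members called lower, 10.4%, was near that background, so the number of calls is not a result about these genes. Their direction was one-sided: 68 of the 77 had a negative log2 fold change (88.3%), against 48.9% of all tested genes. This was not particular to them. Nuclear genes of the respiratory chain had 73 negative values of 81 (90.1%), and genes that charge mitochondrial tRNAs 19 of 20 (95%). Genes picked as cytosolic ribosomal proteins by name (Rpl or Rps and a digit, Rplp and a digit, or Rpsa) had 53 of 97 (54.6%). That name rule also takes genes that encode no ribosomal protein, such as the Rps6k kinases, and these were not removed. The median log2 fold change was -0.21 over the members and 0.01 over all genes, and single members ran from -0.77 to 0.38. At an unadjusted edgeR p under 0.05 there were 26 of the 77 members, against 4752 of the 12916 tested genes. This count too was near the background and is not a result about these genes. All 3 panobinostat libraries lay below all 3 vehicle libraries in 35 members (45.5%), where 22.7% of all genes were apart in that direction. The share was 37.0% for the respiratory chain, 65% for tRNA charging and 10.3% for cytosolic ribosomal proteins. In the opposite direction 1 member, Mrpl30, was apart, where 21.9% of all genes were.

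**Figure D1:**
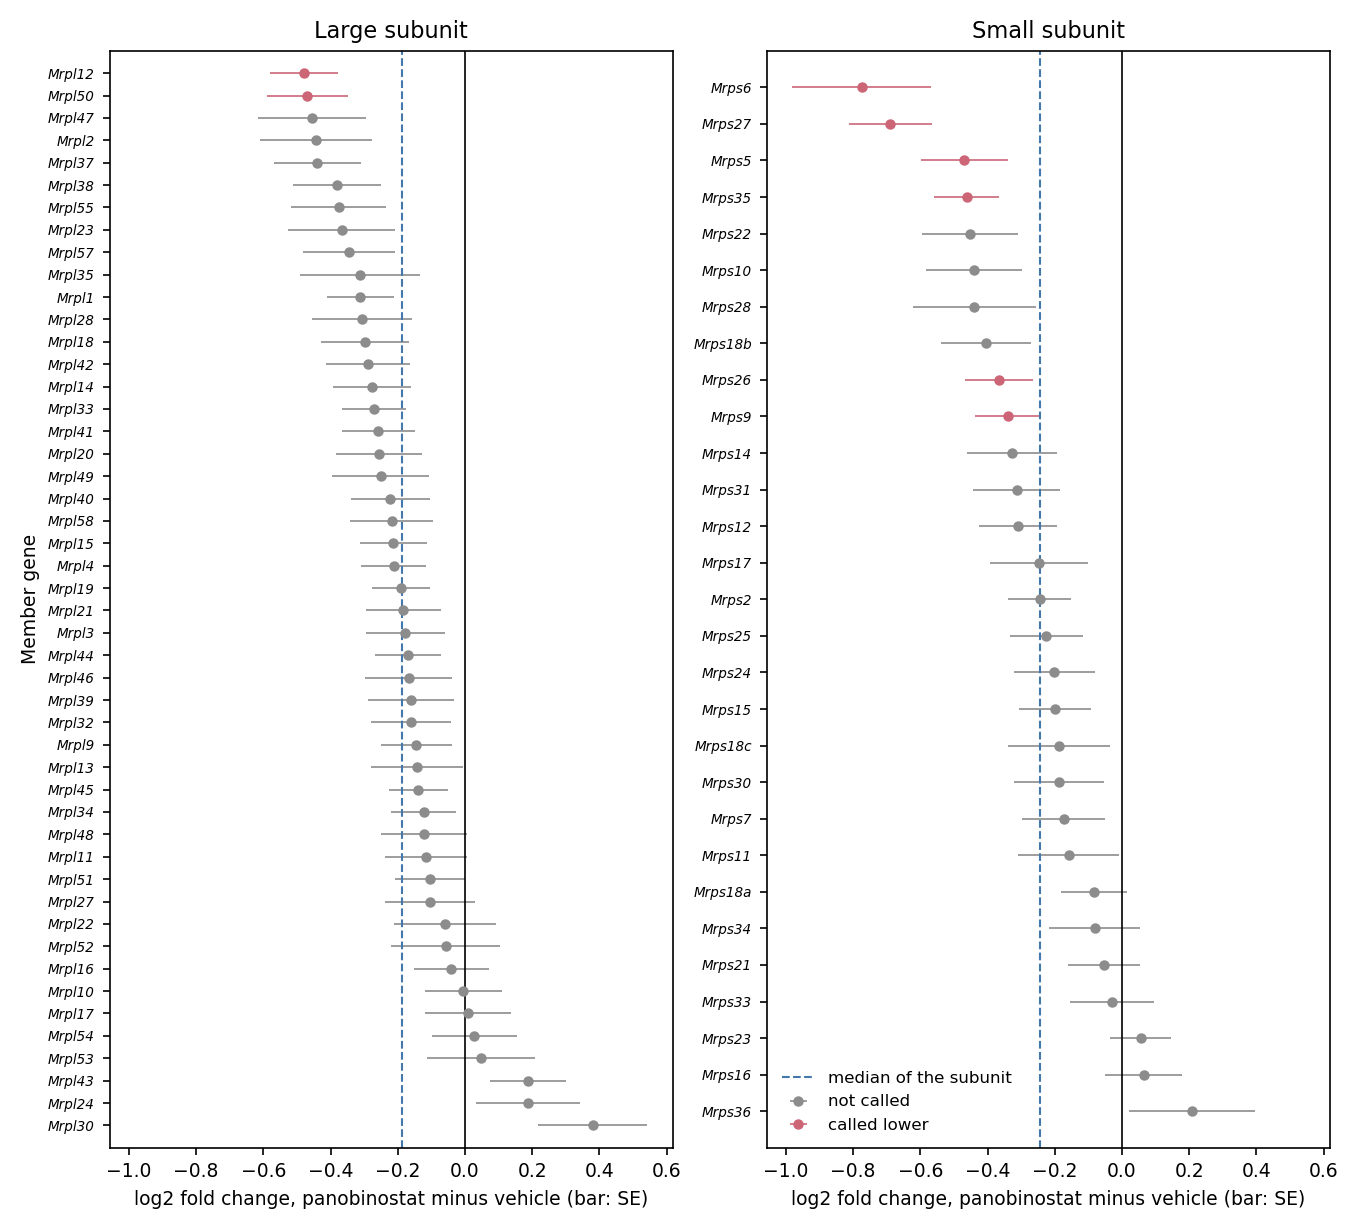
Log2 fold change, panobinostat minus vehicle, on the x axis for each tested member on the y axis, with its standard error as a bar, for 48 large subunit genes (left) and 29 small subunit genes (right). Red points are the 8 genes called lower, and the dashed line is each subunit's median, -0.19 on the left and -0.24 on the right.

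Of the small subunit genes 6 of 29 fell (20.7%), against 9.72% of all tested genes, with a median log2 fold change of -0.24. Negative values were found in 26 of them (89.7%), against 48.9% of all genes. Mrps27, a pentatricopeptide repeat protein of the small subunit, lies on chromosome 13 from 99344767 to 99415562 and had the smallest p. Its level was 34.4, 28.6 and 33.9 CPM in vehicle libraries 2, 3 and 4 and 20.4, 18.1 and 21.5 CPM in panobinostat libraries 1, 5 and 6. The groups did not overlap, and all panobinostat libraries were close together. The log2 fold change was -0.69 ± 0.12 (SE, n = 3 per group), 1.61-fold lower, with an edgeR adjusted p of 0.0123. Of its exon bases 24.2% are shared with a gene on the opposite strand, and the sources used here do not give the strand setting of the counting, so reads of the pair cannot be told apart there.

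Mrps6, the counterpart of bacterial protein S6, had the largest log2 fold change of all members and the lowest level of the tested ones. It measured 10.3, 12.3 and 13.7 CPM with vehicle and 5.44, 7.22 and 8.54 CPM with panobinostat in libraries 1, 5 and 6. Library 1 was the lowest here, in contrast to most members. The log2 fold change was -0.77 ± 0.21 (SE, n = 3 per group), 1.71-fold lower, with an edgeR adjusted p of 0.0383. Without library 1 it was -0.61, smaller in size than those of Mrps27 (-0.70), Mrps28 (-0.64) and Mrpl2 (-0.64). Slc5a3, an inositol transporter gene, is among the genes that share 19.9% of the exon bases of Mrps6.

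Mrps35 is a small subunit protein without a bacterial counterpart. It was tight in both groups, at 33.4, 31.5 and 31.9 CPM with vehicle and 24.1, 22.1 and 24.1 CPM with panobinostat. Its log2 fold change was -0.46 ± 0.10 (SE, n = 3 per group), with an edgeR adjusted p of 0.0181.

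Mrps26, also without a bacterial counterpart, had the highest level of the 6. It measured 77.4, 72.7 and 75.1 CPM with vehicle and 65.1, 52.9 and 56.7 CPM with panobinostat, where library 1 was the closest to vehicle. The log2 fold change was -0.37 ± 0.10 (SE, n = 3 per group), with an edgeR adjusted p of 0.0412.

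Mrps5 and Mrps9 are the counterparts of bacterial S5 and S9. Mrps5 measured 40.9, 36.9 and 40.1 CPM with vehicle and 31.4, 23.6 and 30.2 CPM with panobinostat, a log2 fold change of -0.47 ± 0.13 (SE, n = 3 per group; edgeR adjusted p = 0.0423). Mrps9 measured 44.2, 42.9 and 43.2 CPM with vehicle and 37.5, 31.4 and 34.1 CPM with panobinostat, a log2 fold change of -0.34 ± 0.10 (SE, n = 3 per group; edgeR adjusted p = 0.0489). Both were apart between the groups, and Mrps9 lay just inside the threshold.

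Of the 48 large subunit genes tested 2 fell (4.17%), under the 9.72% of all genes, with a median log2 fold change of -0.19. Here 42 values were negative (87.5%). Mrpl12 forms the flexible stalk that recruits translation factors and is also known to bind the mitochondrial RNA polymerase. It measured 64.2, 58.9 and 59.9 CPM with vehicle and 45.5, 39.0 and 46.8 CPM with panobinostat, and the groups did not overlap. Its log2 fold change was -0.48 ± 0.10 (SE, n = 3 per group), 1.39-fold lower, with an edgeR adjusted p of 0.0193. Mrpl50 is a large subunit protein without a bacterial counterpart. It measured 41.1, 46.8 and 50.3 CPM with vehicle and 30.7, 31.9 and 37.3 CPM with panobinostat, which left a gap between the groups. Its log2 fold change was -0.47 ± 0.12 (SE, n = 3 per group), with an edgeR adjusted p of 0.0347.

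**Figure D2:**
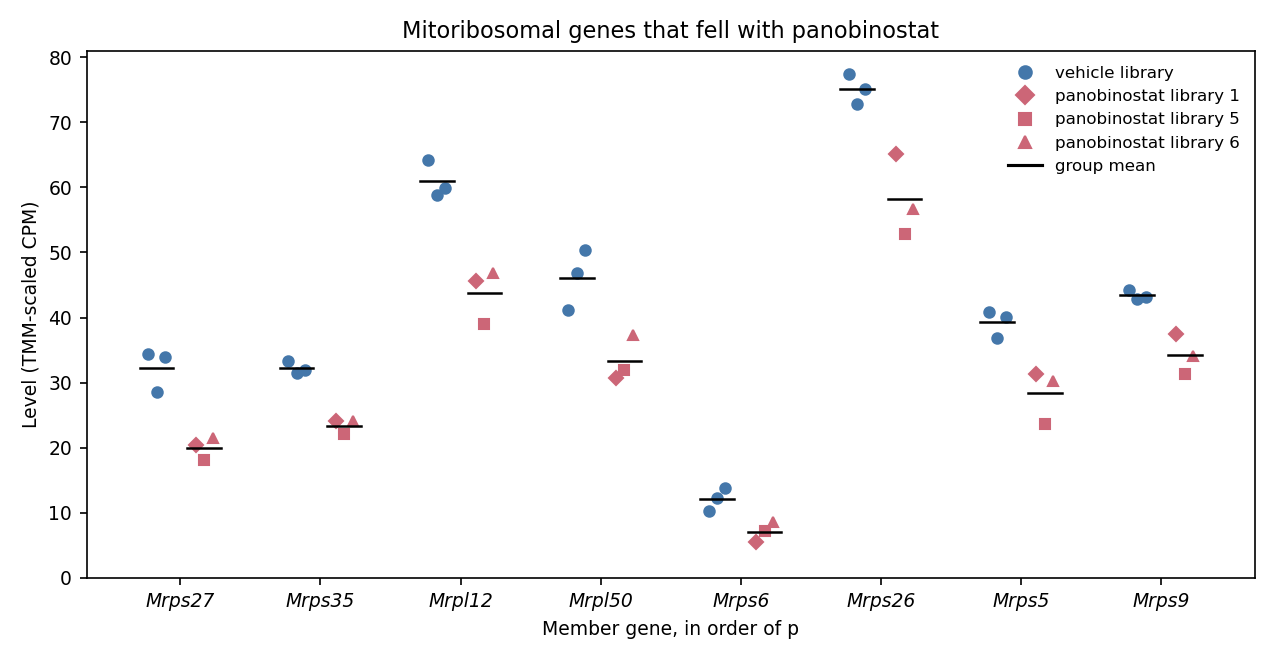
Level of the 8 mitoribosomal genes called lower, in CPM on the y axis, for each library and gene on the x axis, with group means as bars. Circles are vehicle libraries, and the diamond, square and triangle are panobinostat libraries 1, 5 and 6, which lie below every circle of the same gene.

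The largest changes that missed the threshold were in Mrpl47, Mrps22 and Mrpl2. Mrps22, a small subunit protein without a bacterial counterpart, measured 27.0, 25.8 and 31.0 CPM with vehicle and 21.9, 16.98 and 22.3 CPM with panobinostat (log2 fold change -0.45 ± 0.14, SE, n = 3 per group; edgeR adjusted p = 0.0618). Mrpl47, the counterpart of bacterial L29 at the peptide exit, had a log2 fold change of -0.46 ± 0.16 (edgeR adjusted p = 0.0841). Mrpl2, the counterpart of L2 next to the catalytic centre, had one of -0.44 ± 0.17 (edgeR adjusted p = 0.0984). In all 3 genes the groups did not overlap, and in Mrpl2 library 1 lay just under the lowest vehicle library, 39.5 against 40.1 CPM. Without library 1 all 3 fell: Mrpl2 by 0.64 (edgeR adjusted p = 0.00868), Mrpl47 by 0.54 (0.0423) and Mrps22 by 0.51 (0.0421). In that fit 45.5% of the members and 14.3% of all tested genes were called lower. None of the 3 was called with any other library left out. Of the exon bases of Mrpl47, 24.2% are shared with Actl6a and Ndufb5 on the opposite strand.

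Mrpl18, Mrpl51 and Mrpl52 had the highest CPM of the members, and none was called. Mrpl18, known to bind 5S rRNA, measured 91.3, 86.1 and 101 CPM with vehicle and 84.3, 62.4 and 79.9 CPM with panobinostat (log2 fold change -0.30 ± 0.13, edgeR adjusted p = 0.146). Mrpl51 had a log2 fold change of -0.10 ± 0.10. Mrpl52 overlapped widely, from 79.0 to 85.8 CPM with vehicle and at 99.8, 65.9 and 69.5 CPM with panobinostat, where library 1 was above and the other two below all vehicle libraries. Its log2 fold change was -0.06 ± 0.16 with library 1 and -0.27 ± 0.08 without it (edgeR adjusted p = 0.823 and 0.04003). Mrpl52 was not called with any other library left out. Without library 1, Mrpl18 measured -0.38 and Mrpl51 -0.18, and neither was called.

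Among members with other known roles, Mrps12, the decoding-centre counterpart of S12, measured 25.4, 25.8 and 27.0 CPM with vehicle and 23.7, 19.2 and 20.2 CPM with panobinostat (log2 fold change -0.31 ± 0.12, edgeR adjusted p = 0.0986). Mrpl45, which ties the ribosome to the inner membrane, had a log2 fold change of -0.14 ± 0.09 (edgeR adjusted p = 0.288). Mrpl58, a peptidyl-tRNA hydrolase built into the large subunit, had one of -0.22 ± 0.12 (edgeR adjusted p = 0.246). The paralogs of S18 differed in size: Mrps18b measured -0.40 ± 0.14 (edgeR adjusted p = 0.0727), Mrps18c -0.19 ± 0.15 and Mrps18a -0.08 ± 0.10, and the differences between them were not tested. Other genes share 30.5% of the exon bases of Mrps18b and 23.2% of those of Mrps18c, against 0% for Mrps18a. Mrps36, now known mainly as a subunit of the 2-oxoglutarate dehydrogenase complex, had a positive value of 0.21 ± 0.19 (edgeR adjusted p = 0.455) with library 1 at 47.8 CPM and the other 5 libraries between 29.4 and 32.9 CPM. Mrpl30 had the highest value, 0.38 ± 0.16 (edgeR adjusted p = 0.137), from 61.0, 56.1 and 62.4 CPM with vehicle and 99.2, 67.5 and 66.9 CPM with panobinostat. Without library 1 its value was 0.17 ± 0.08 (edgeR adjusted p = 0.146). It was chosen for mention after its values were seen. Without library 1, Mrps12 (-0.40, edgeR adjusted p = 0.0232), Mrpl58 (-0.34, 0.0364), Mrps18b (-0.46, 0.0377) and Mrps18c (-0.36, 0.0368) were called lower. None of them was called with any other library left out. Mrpl45 (-0.18), Mrps18a (-0.14), Mrps30 (-0.32, from -0.19 with library 1) and Mrps36 (-0.04) were not called without it.

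Mrps30 and Mrps18a are named for the small subunit but are known to sit in the large one. Counting them there gave 2 of 50 large (4.0%) and 6 of 27 small subunit genes (22.2%) called lower, with medians of -0.18 and -0.25. By ancestry, 4 of 45 genes with a bacterial counterpart fell (8.89%, median -0.21) and 4 of 32 without one (12.5%, median -0.20). Over all tested genes 9.72% were called lower, so the counts by ancestry are near the background and are not a result about these genes. Members cannot serve as replicates, and the difference between the subunits was not tested.

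The summed level of each subunit was also compared. The large subunit summed to 2078, 1973 and 2114 CPM with vehicle and 2071, 1615 and 1777 CPM with panobinostat, which overlapped because of library 1. The small subunit summed to 1032, 998 and 1072 CPM with vehicle and 988, 785 and 870 CPM with panobinostat, which did not overlap. Large over small was 2.014, 1.978 and 1.972 with vehicle (1.99 ± 0.0227, SD, n = 3) and 2.097, 2.057 and 2.041 with panobinostat (2.06 ± 0.0288, SD, n = 3). The ratio was higher in every panobinostat library than in any vehicle library, by 0.05 on the log2 scale, and with Mrps30 and Mrps18a moved it averaged 2.25 and 2.35. The members were chosen with results of these data known, so this score has no p.

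**Figure D3:**
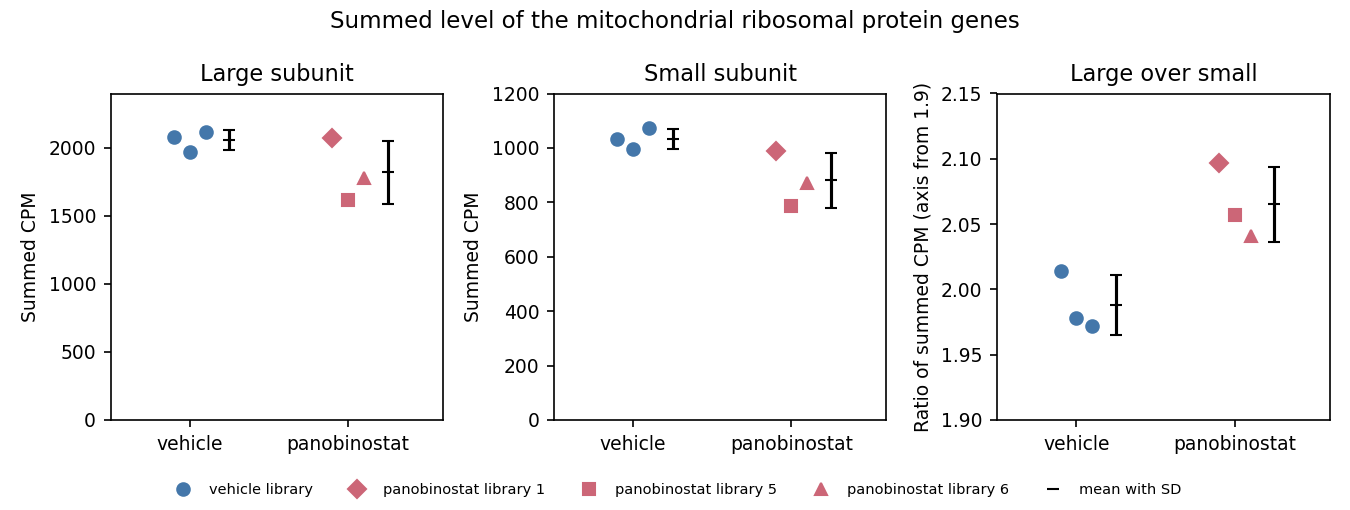
Summed CPM of the large subunit genes (left) and small subunit genes (middle) and their ratio (right) on the y axes, for vehicle and panobinostat libraries on the x axis, with the group mean and SD as bars. Panobinostat library 1 (diamond) sits among the vehicle libraries on the left, and the ratio axis starts at 1.9.

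The 3 panobinostat libraries differed from each other in an ordered way across the members. Library 1 was the highest of them in 68 of 77 members (88.3%), where this held for 42.8% of all genes, and library 5 was the lowest in 67 (87.0%), against 36.2% of all genes. In other gene groups library 1 was the highest in 92.6% of respiratory chain genes and 88.7% of genes picked as cytosolic ribosomal by name. Library 5 was the lowest in 85.2% and 56.7% of these groups, in that order. Library 1 lay below all vehicle libraries in 36 members, library 5 in 68 and library 6 in 66 (46.8%, 88.3% and 85.7%), where the same held for 39.9%, 39.9% and 36.8% of all genes. The median log2 level relative to the vehicle mean was -0.06, -0.38 and -0.21 over members in libraries 1, 5 and 6. In the small subunit it was -0.10, -0.42 and -0.28, and in the large one -0.04, -0.33 and -0.20. Library 1 also had the highest red cell and red pulp macrophage marker sums, the latter 65.9 CPM over 10 genes against 31.2 and 19.8 CPM in libraries 5 and 6 and 15 to 24.9 CPM with vehicle. Of these markers 5 of 8 and 1 of 10 rose with treatment, against 11.3% of all tested genes. The macrophage count is near that background and is not a result about those markers. Of 5 platelet markers 4 rose, with sums of 71.4 to 95.0 CPM with vehicle and 209 to 355 CPM with panobinostat. Of the other marker lists, 0 of 6 tested B cell, 0 of 1 T and NK cell, 0 of 3 neutrophil and 1 of 3 plasmacytoid dendritic cell genes rose. Whether these marker transcripts came from other cells in the sort or from the leukemia cells themselves cannot be told apart here. Their part in the members' levels was not tested, and fewer leukemia cells in a sort cannot be told apart from less RNA per cell.

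**Figure D4:**
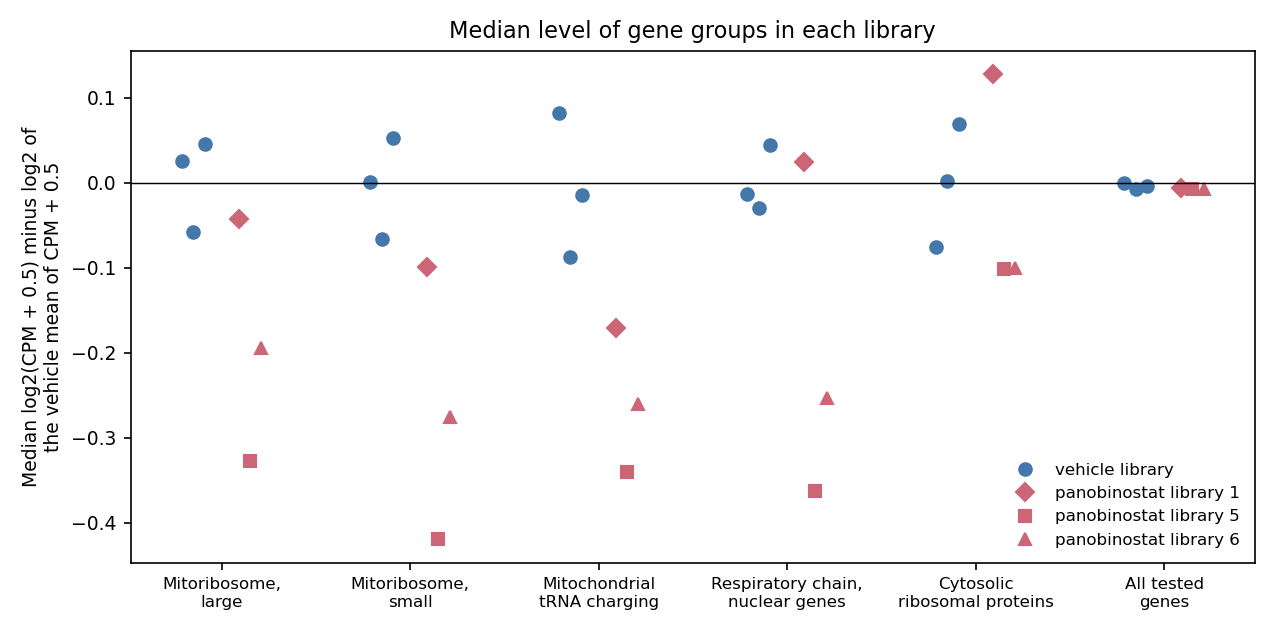
Median over each gene group (x axis) of the log2 level in a library minus the log2 of the vehicle mean, with 0.5 CPM added to both (y axis). The cytosolic ribosomal group was picked by name and can hold other genes. Vehicle libraries are circles around 0, and panobinostat library 5 (square) is the lowest in both mitoribosome subunits, with library 1 (diamond) close to vehicle.

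Without library 1, 35 of the 77 members fell (45.5%), among them all 8 of the first comparison, and 0 of the 8 changed direction. The 8 log2 fold changes were then -0.70 (Mrps27), -0.61 (Mrps6), -0.54 (Mrps5), -0.51 (Mrpl12), -0.48 (Mrps35), -0.45 (Mrps26), -0.41 (Mrpl50) and -0.41 (Mrps9). The background of calls lower also went up, to 14.3% of genes, and 74 members had a negative log2 fold change. The count was far smaller when another library was left out: 2 without library 5, where the background was 4.9%, and 5 without library 6, at 7.11%. It was 0 without vehicle library 2 (background 1.37%), 1 without vehicle library 3 (3.89%) and 0 without vehicle library 4 (1.02%), while the unadjusted p was under 0.05 for 14, 16 and 10 members. The share of all genes at that unadjusted p was not counted in these fits. With library size as the only scaling 27 members were called lower at a background of 16%, but that scaling also moved the median of all genes to -0.10. DESeq2 called 13 lower, at a background of 13.1%. Across these settings 62 to 74 of the tested members had a negative log2 fold change, whereas the number called ran from 0 to 35.

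**Figure D5:**
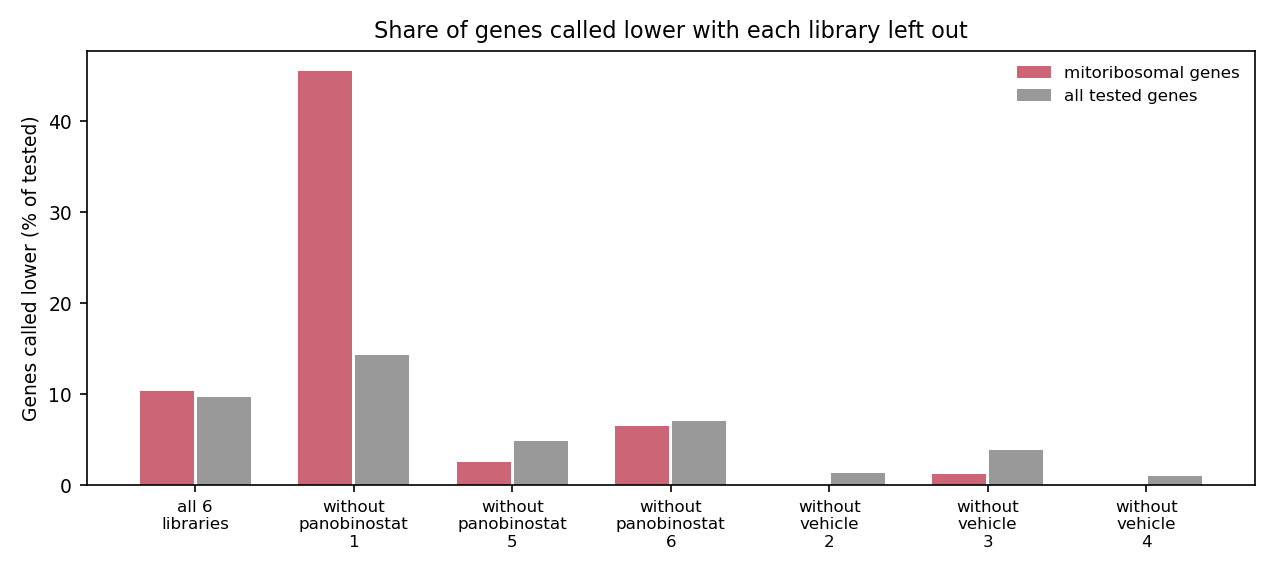
Percent of tested genes called lower (y axis) with all 6 libraries and with each library left out in turn (x axis), for the mitoribosomal genes (red) and all tested genes (gray). The red bar exceeds the gray one widely without panobinostat library 1, at 45.5% against 14.3%, and is below it when any other library is left out.

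The rest of the mitochondrial translation apparatus was read from the same fit, where 9.72% of all tested genes were called lower and 11.3% higher. Among 5 proteins of the mitoribosome without an Mrp name, Ptcd3, a pentatricopeptide repeat protein of the small subunit, fell (-0.44 ± 0.10, edgeR adjusted p = 0.0220). Dap3, a GTP-binding protein of the small subunit, measured -0.01 ± 0.13, and Gadd45gip1, of the large one, -0.16 ± 0.13. Of 30 genes for assembly and rRNA modification 7 fell (23.3%) and 0 rose, with a median of -0.07. They included Noa1, a GTPase for small subunit assembly (53.5, 53.7 and 61.9 CPM with vehicle and 30.8, 30.5 and 39.4 CPM with panobinostat, -0.75 ± 0.13, edgeR adjusted p = 0.0119), Rbfa (-0.51), C1qbp (-0.55) and Fastkd2 (-0.56).

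Of 17 translation factors 4 fell (23.5%) and 0 rose, with a median of -0.17: Tufm, the elongation factor that delivers tRNA (-0.40 ± 0.09, edgeR adjusted p = 0.0205), its exchange factor Tsfm (-0.48), the translocase Gfm1 (-0.46) and the messenger RNA stabiliser Lrpprc (-0.41). Of 20 genes that charge mitochondrial tRNAs, all synthetases but for the amidotransferase subunits Gatb, Gatc and Qrsl1, 4 fell (20%) and 0 rose, with a median of -0.26, among them Vars2 (-0.50), Tars2 (-0.32) and Cars2 (-0.40). Polg, the mitochondrial DNA polymerase, was the 1 gene of 11 (9.09%) for mitochondrial DNA that fell (-0.40 ± 0.09, edgeR adjusted p = 0.0212), while Tfam, which packs that DNA (-0.26, adjusted p = 0.0843), and Polrmt, which transcribes it (-0.25, adjusted p = 0.0784), missed the threshold. Of 9 regulators of mitochondrial biogenesis 1 fell (11.1%), Gabpb2 (-0.38, adjusted p = 0.0388), a partner of the ETS factor Gabpa. Gabpa (-0.19, adjusted p = 0.120), Myc (-0.23, adjusted p = 0.163) and Nrf1 (-0.11, adjusted p = 0.559) were not called. Neither were Gabpb1 (-0.004, edgeR adjusted p = 0.984) and Yy1 (0.20, edgeR adjusted p = 0.146), which were added after their values were seen. Of the 9 regulators 7 had a negative value.

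Outside mitochondrial translation, nuclear genes of the respiratory chain resembled the members in their median log2 fold change, which was -0.19. Of these 81 genes 7 were called lower (8.64%) and 2 higher, against 9.72% and 11.3% of all tested genes. The count called lower was near the background and is not a result about these genes. The genes picked as cytosolic ribosomal proteins by name, which can include others as said above, had 1 lower and 1 higher of 97. Their median was -0.02, and whether the called genes encode ribosomal proteins was not checked. In library 1 the median relative level was 0.02 for the respiratory chain and 0.13 for cytosolic ribosomal proteins, and in library 5 it was -0.36 and -0.10. No difference between these groups of genes and the members was tested.

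Some members share their upstream region with another gene. In GENCODE, 17 of the 78 (21.8%) lie head to head with a protein-coding gene within 500 bases, against 10.01% of tested protein-coding genes. Of the 17 partners 4 were called lower (23.5%) and 2 higher (11.8%), against 9.72% and 11.3% of all tested genes. The median log2 fold change of the partners was -0.01, against -0.21 over all members. No median was taken over the 17 members in these pairs alone. Mrps27 and Ptcd2, an RNA-processing factor of mitochondria, were the 1 pair in which both fell (Ptcd2 -0.35 ± 0.09, edgeR adjusted p = 0.0382). Cyb5rl, a reductase gene, fell (-0.67 ± 0.17, edgeR adjusted p = 0.0351) next to Mrpl37, which measured -0.44 ± 0.13 and just missed the threshold (edgeR adjusted p = 0.0503). In contrast, Klc4, a kinesin light chain gene next to Mrpl2, rose by 0.73 ± 0.16 (edgeR adjusted p = 0.0226), and Mitd1 next to Mrpl30 rose by 0.63 ± 0.16 (edgeR adjusted p = 0.0339). Mrpl51 measured -0.10 where its neighbour Ncapd2, a condensin subunit, fell (-0.70, edgeR adjusted p = 0.0238), and Ska3, of the kinetochore, next to Mrpl57, fell by 1.12 (edgeR adjusted p = 0.00684). The gap of Mrps11 and Mrpl46 printed above separates genes with log2 fold changes of -0.16 ± 0.15 and -0.17 ± 0.13; they are not among the 17, since their spans overlap in GENCODE. Over all members, 33 share some exon bases with another gene, and Mrpl53 (88.0%), Mrps34 (77.8%) and Mrps25 (69.8%) share more than 50% of theirs, so their levels are uncertain.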

How the data were processed

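RNA of sorted leukemia cells was sequenced in 6 libraries (TruSeq RNA kit, 1 ug of total RNA, per the labels' protocols). The authors deposited raw counts of reads, 1 row per Entrez gene. Their tools, per the submitters' processing notes, were HISAT2 2.1.0, cutadapt 2.1, featureCounts of Subread 2.0.0 and limma, on build mm10, with bcl2fastq 2.17.1.14 and FastQC 0.11.6. The annotation, the strand setting and how reads with more than 1 placement were counted: not given in the sources used here. Symbols came from the RefSeq table for GRCm38 (25275 of 27179 IDs), and exon lengths from GENCODE vM21.

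Genes passing filterByExpr (12916) were scaled by TMM and tested with edgeR 4.0.16 (R 4.3.3), quasi-likelihood F test, Benjamini-Hochberg adjustment over all tested genes. Standard errors were taken from the F statistic (size of the log2 fold change over the root of F). Libraries carry the first number of their column name. No pair of libraries agreed within counting noise. The members and lists were chosen with earlier results of these data known. Named members were the called ones with the smallest p, the 3 highest in CPM, the 3 largest not called, and 9 set by name. From each other list came up to 4 called genes, with 8 genes always named. An item that this rule names is not reported here. Alternatives were DESeq2 1.42.0, limma-voom (limma 3.58.1), other scalings and filters, and leaving out each library.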

Additional observations from a re-analysis of the deposited data

How the results depend on the processing

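The number of members called lower was 8 in the fit as reported, 2 large and 6 small. With library size as the only scaling it was 27 (14 large, 13 small), and with DESeq2 13, of them 4 large. Leaving out 1 library at a time gave 0 to 35 members, 0 to 19 large and 0 to 16 small. The other settings (upper quartile and RLE factors, limma-voom, robust shrinkage, no filter, at least 1 CPM in 3 libraries) gave 7 to 9. The median over members was negative in every setting run, from -0.32 to -0.14. Of the 8 called genes, 7 were called in all 8 alternatives that kept all libraries, and Mrps9 in 5 of them. None of the 8 kept its call without vehicle library 2 or 4, where the adjusted p reached 0.154. Of the 6 fits with 1 library left out, Mrps27 kept its call in 4, Mrpl12 in 3, and Mrpl50, Mrps35 and Mrps6 in 2. Mrps26, Mrps5 and Mrps9 kept theirs in 1, the fit without library 1. Among the genes named by rule, the sign turned for 4 that were not called when 1 library was left out, with values from -0.268 to 0.052 for Mrpl52 (positive without library 5 or 6), -0.040 to 0.336 for Mrps36 (negative without library 1), -0.147 to 0.072 for Dap3 (positive without vehicle library 2, library 5 or library 6) and -0.208 to 0.006 for Nrf1 (positive without library 5). Over all members, 6 with a positive value turned negative without library 1: Mrps36, Mrpl17, Mrpl24, Mrpl53, Mrpl54 and Mrps16. The cause was not tested.

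With 3 libraries a group, small changes are near the limit of detection. No paired analysis was possible because the columns carry no replicate number.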
